A study of Sus scrofa with 75 samples.

Results

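Neutrophils carry antimicrobial proteins in granules that are filled in sequence while the cell matures in bone marrow. The azurophil granules come first and hold myeloperoxidase (MPO). The specific granules follow and hold lactoferrin (LTF), the peptidoglycan recognition protein PGLYRP1 and, in pigs, the cathelicidins from which peptides such as protegrin 2 (PG-2) are cut. Mature cells hold the calgranulins S100A8, S100A9 and S100A12 in the cytosol, where they bind calcium and metals, and carry CSF3R, the receptor for granulocyte colony-stimulating factor. Several of these genes are also used outside neutrophils: gland and airway epithelium secretes lactoferrin, and monocytes express calgranulins.

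These 8 genes were followed by symbol through the deposited annotation into the gene table, which listed 35798 genes. The annotation named 7 of them, and S100A9 was not among its symbols. The members were chosen by their measured gene TPM over organs, pig groups and single animals, so the levels and differences given for them describe the libraries and carry no test. An unnamed gene (ENSSSCG00000006588) overlaps the interval that RefSeq gives to S100A9 on the same assembly. It is reported beside the members as the gene at the S100A9 locus and is not counted among them.

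The samples were heart, kidney, liver, lung and spleen of adult male pigs, all 12 months old. Titles place the animals in 3 groups with the codes BS, DSE and DT. DT was not analysed here, and BS and DSE had 4 animals each. No label explains the codes, and no treatment is named. Each organ of each BS or DSE animal gave 1 Illumina library after depletion of ribosomal RNA, 40 in all, and each organ of each pig group gave 1 PacBio library of full-length transcripts, 10 in all. That libraries with the same animal code come from 1 animal is read from the titles, and nothing else states that the samples of a group were collected separately, so each p-value measures only the spread between these samples. Levels are TPM (the relative level of a transcript in its library, corrected for its length), which sum to 1000000 in every library, so the short-read depth is unknown.

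Organ identity was checked by marker sums. The 11 markers of airway and gland epithelium summed to 10864 TPM or more in every lung and to at most 37.5 TPM in every spleen. Some libraries were high in marker genes. The DSE2 lung held 1596 TPM of BPIFA1 and 1239.55 TPM of BPIFB1, secreted proteins of airway and gland epithelium, against at most 38.1 and 66.6 TPM in the other lungs. The BS1 spleen held 29495 TPM of 10 erythroid genes, beside 28412 in BS4, 14908 in BS2, 1064 in BS3 and 685 to 6862 in DSE. BS1 was thus close to BS4, and leaving out BS1 does not remove the other spleens rich in erythroid genes. The 6 heart muscle markers summed to 221 TPM in the highest BS liver, beside a BS median of 2.81 and at most 0.921 TPM in DSE livers. That liver was kept. Values that rest on the DSE2 lung or the BS1 spleen are given with and without that library, an alternative chosen after the data were seen. In bulk tissue, fewer cells of a type and less RNA per cell cannot be told apart.

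In build susScr11, S100A8 (ENSSSCG00000006590) lies on chromosome 4 at 96209659 to 96210602 on the plus strand. S100A12 (ENSSSCG00000032857) follows at 96225691 to 96227127, also on the plus strand, and the gene at the S100A9 locus at 96236115 to 96239413 on the minus strand. LTF (ENSSSCG00000029879) spans 29413886 to 29445739 of chromosome 13, minus strand. Chromosome 6 carries both PGLYRP1 (ENSSSCG00000038688; 52318531 to 52322638, minus strand) and CSF3R (ENSSSCG00000025795; 92550118 to 92565490, minus strand). MPO (ENSSSCG00000017637) lies on chromosome 12 at 34556408 to 34567904, minus strand, 2232 bases from LPO, which encodes the related lactoperoxidase. PG-2 (ENSSSCG00000059830) sits on an unplaced scaffold at 30867 to 32865, minus strand, 8053 bases from a gene named NPG3. Cathelicidin genes can share stretches of sequence, which were not compared here, so the split of reads between PG-2 and its neighbours is uncertain.

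**Figure D1:**
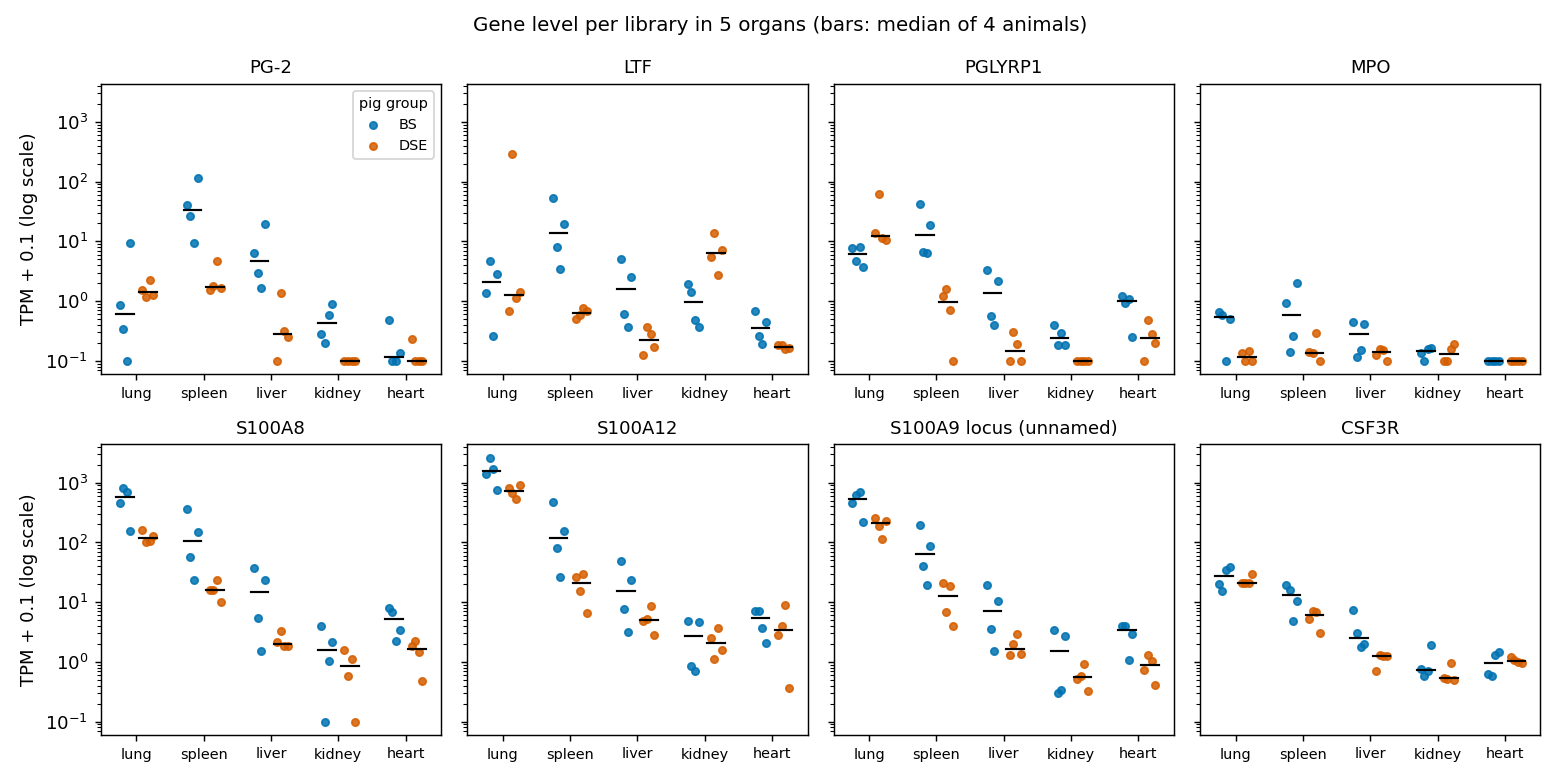
TPM of each member and of the gene at the S100A9 locus in 5 organs, on a log axis after adding 0.1 TPM. Each point is 1 library, BS blue and DSE orange, and bars are the medians of 4 animals; the calgranulins stand highest in lung, and PG-2 and LTF in spleen separate the pig groups.

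The calgranulins were the most abundant members, and lung was their main site. The mean level of S100A12 was 1179.5 ± 706 TPM in lung, 102 ± 159 in spleen, 13.04 ± 16.1 in liver, 4.46 ± 3.01 in heart and 2.40 ± 1.71 in kidney (SD, n = 8 in each organ). The lowest lung, at 543 TPM, exceeded the highest spleen, at 477 TPM. That was the only pair of organs next to each other in order of mean level, over all 7 members, whose libraries did not overlap. S100A8 followed the same order of organs, with means of 327 ± 291 TPM in lung, 82.1 ± 121 in spleen, 9.58 ± 13.5 in liver, 3.21 ± 2.68 in heart and 1.23 ± 1.28 in kidney. Its lungs ranged down to 100.3 TPM and its spleens up to 358 TPM, so those organs overlapped. The gene at the S100A9 locus averaged 347 TPM in lung and 49.0 TPM in spleen, with the lowest lung at 113 and the highest spleen at 197 TPM.

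Single libraries show how far the animals spread. In lung, S100A8 stood at 452, 814, 702 and 153 TPM in BS1 to BS4 and at 161, 100.3, 106 and 128 TPM in DSE1 to DSE4. BS1, BS2 and BS3 were above every DSE lung, while BS4 lay inside the DSE range. S100A12 had 1425, 2635, 1687 and 748 TPM in the BS lungs and 805, 672, 543 and 923 TPM in the DSE lungs. Again BS4 fell among the DSE animals and the other BS lungs did not. At the S100A9 locus the lungs had 461, 611, 697 and 219 TPM in BS and 258, 185, 113 and 232 TPM in DSE, with the same single overlap. The means in lung were 530.2 ± 294 against 124 ± 27.8 TPM for S100A8 and 1624 ± 782 against 735 ± 164 TPM for S100A12 (SD, n = 4).

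The balance between the chromosome 4 neighbours differed from library to library. In lung, S100A12 was 3.16, 3.24, 2.40 and 4.90 times the S100A8 level in BS1 to BS4 and 4.99, 6.70, 5.15 and 7.21 times in DSE1 to DSE4. Every DSE lung was above every BS lung, although BS4 and DSE1 were close. In spleen the ratio was 1.33, 1.40, 1.13 and 1.01 in BS and 1.64, 0.958, 1.26 and 0.661 in DSE, and the groups overlapped. Liver ratios ran from 0.976 to 2.17 in BS and from 1.57 to 4.77 in DSE. No spleen reached the lowest lung ratio of 2.40.

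**Figure D2:**
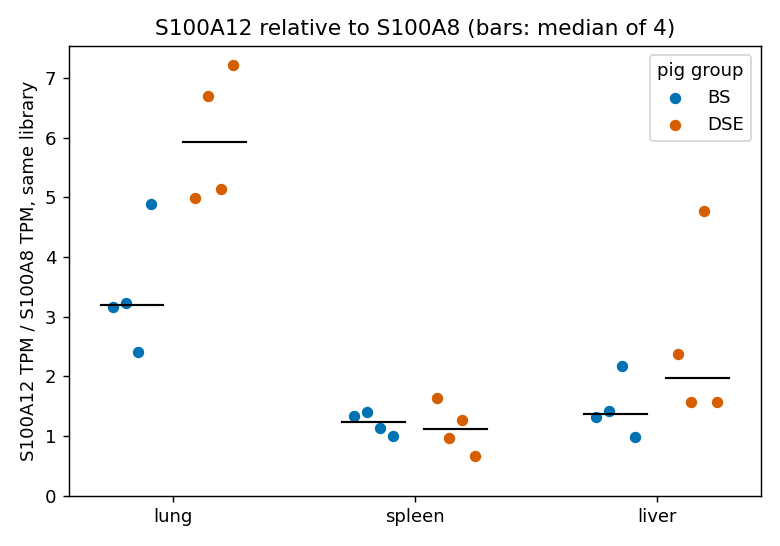
Ratio of S100A12 TPM to S100A8 TPM in each lung, spleen and liver library, BS blue and DSE orange. Lung ratios lie between 2.40 and 7.21 and are higher in every DSE animal, and spleen ratios lie between 0.661 and 1.64.

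PG-2 had another order of organs, led by spleen. Its mean was 25.1 ± 39.0 TPM in spleen, 3.98 ± 6.57 in liver, 2.03 ± 3.08 in lung, 0.194 ± 0.290 in kidney and 0.0695 ± 0.137 in heart (SD, n = 8), and every pair of neighbours in this order overlapped. In spleen it stood at 41.1, 26.1, 9.48 and 115 TPM in BS1 to BS4 and at 1.46, 1.67, 4.52 and 1.583 TPM in DSE1 to DSE4. The lowest BS spleen was thus above the highest DSE spleen. The ratio of the group means was 20.7, and 11.1 without BS4. Liver had 6.37, 2.83, 1.55 and 19.4 TPM in BS, against 1.29, 0.217 and 0.154 TPM in DSE2 to DSE4 and a value listed at 0 in DSE1. In kidney it ranged from 0.101 to 0.780 TPM in BS and was listed at 0 in all 4 DSE animals. Lung did not follow: BS4 had 9.48 TPM, BS1 and BS2 had 0.753 and 0.245 TPM, BS3 was listed at 0, and DSE lungs lay between 1.07 and 2.12 TPM.

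The other cathelicidins tested in spleen had the same split between pig groups, here with a test, since they were not members. All counts and tests of this kind used limma on log2(TPM + 1), with Benjamini-Hochberg adjustment over all tested genes and a change of at least 2-fold. These cathelicidins reached the 1 TPM minimum for a test only through BS, as their DSE means were 0.456 to 0.851 TPM. One NPG3 gene (ENSSSCG00000031090) had 20.7, 19.02, 11.4 and 73.4 TPM in BS and 0.681 and 1.14 TPM in DSE1 and DSE3, and was listed at 0 in DSE2 and DSE4. It was higher in BS by 4.19 ± 0.50 on the log2 scale (SE, adjusted p = 0.00249). The other NPG3 gene (ENSSSCG00000053533) differed by 2.76 ± 0.62 (adjusted p = 0.0151, and 0.0928 without the filter on low values). PMAP-23, a cathelicidin on chromosome 13, differed by 1.57 ± 0.41 (adjusted p = 0.0247), with 0.129 without the filter and 0.0656 without DSE3. An unnamed gene beside it (ENSSSCG00000052135) had 20.4, 16.1, 6.51 and 62.9 TPM in BS against 0.494 to 1.70 TPM in DSE, and was picked after its values were seen. Since cathelicidin genes can share reads, the agreement of these genes with PG-2 cannot be taken as independent of it.

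Lactoferrin was highest in different organs in different animals. LTF averaged 37.9 ± 103 TPM in lung, 10.8 ± 18.4 in spleen, 4.07 ± 4.58 in kidney, 1.101 ± 1.77 in liver and 0.185 ± 0.191 in heart (SD, n = 8), and all neighbouring organs overlapped. The first place of lung came from 1 library. LTF stood at 1.29, 4.60, 0.160 and 2.71 TPM in the BS lungs and at 0.579, 292, 1.02 and 1.32 TPM in the DSE lungs, and without DSE2 the DSE mean was 0.971 ± 0.371 in place of 73.7 ± 145 TPM. In spleen the BS animals had 53.2, 7.91, 3.39 and 19.6 TPM and the DSE animals 0.411, 0.484, 0.678 and 0.593 TPM, with no overlap. Their means differed 38.8-fold, and 19.02-fold without BS1. Kidney ran the other way: 1.81, 1.35, 0.378 and 0.269 TPM in BS and 5.31, 13.7, 2.59 and 7.15 TPM in DSE, so that every DSE kidney was above every BS kidney.

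PGLYRP1, which binds bacterial cell walls, was shared between lung and spleen. Its means were 15.1 ± 19.1 TPM in lung, 9.59 ± 14.4 in spleen, 0.793 ± 1.19 in liver, 0.473 ± 0.445 in heart and 0.0833 ± 0.113 in kidney (SD, n = 8), again with overlap between all neighbours. In lung the BS animals had 7.75, 4.60, 7.84 and 3.67 TPM and the DSE animals 13.6, 61.6, 11.2 and 10.5 TPM. All DSE lungs were above all BS lungs, with DSE2 far above the rest and a DSE mean of 11.8 ± 1.59 TPM without it, against 24.2 ± 24.9 with it. In spleen the order was turned, with 41.6, 6.44, 6.42 and 19.05 TPM in BS, 1.14, 1.49 and 0.610 TPM in DSE1 to DSE3 and a value listed at 0 in DSE4. PGLYRP1 was listed at 0 in all 4 DSE kidneys and at 0.0816 to 0.303 TPM in BS.

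The DSE2 lung, where LTF and PGLYRP1 peaked, also led in other secreted and matrix genes. OLFM4, a secreted glycoprotein of neutrophil granules and epithelium, stood at 169 TPM there and at no more than 0.687 TPM in the other lungs. WFDC2, an epithelial antiprotease, had 1013 TPM against at most 397. The cartilage genes HAPLN1 and ACAN had 18.0 and 8.68 TPM, against at most 1.01 and 0.319 TPM elsewhere in lung. The sum of 10 B and plasma cell markers was also highest in that lung, at 7681 TPM, beside 1088 to 3984 in the other DSE lungs and 277 to 1509 in BS. S100A8 and S100A12, at 100.3 and 672 TPM, were among the lowest lungs there, and the 5 neutrophil markers that are not members (PADI4, MMP8, MMP9, CD177 and TREM1) summed to 17.6 TPM, within the range of 8.89 to 34.2 over all lungs. That sum does not describe each marker, as 4 of the 5 reached the 1 TPM minimum in lung and 3 did without the DSE2 lung. What part these other genes have in the LTF value was not tested.

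**Figure D3:**
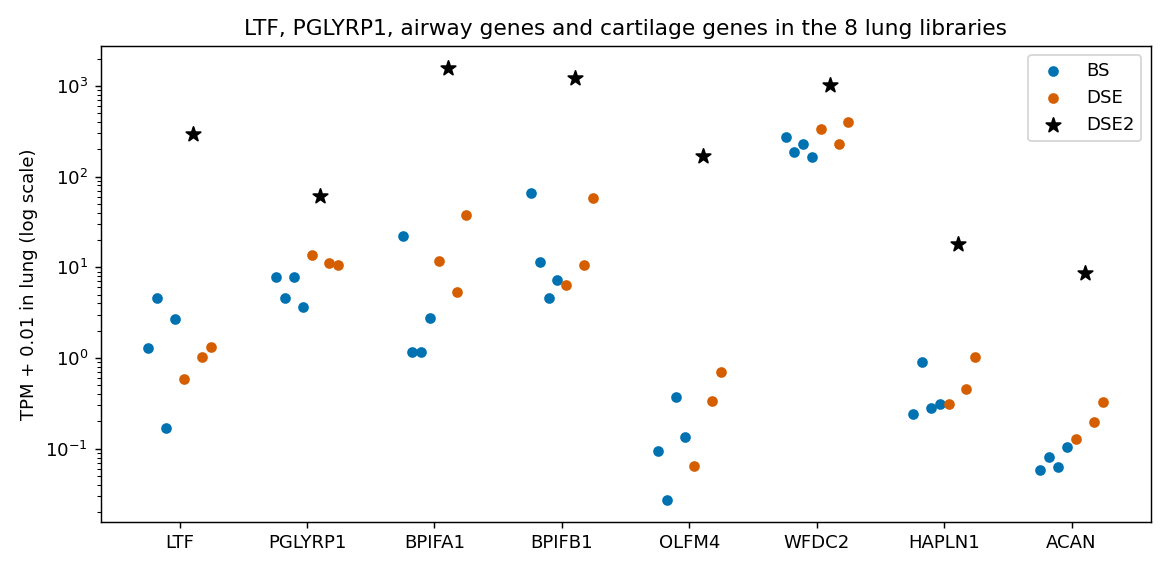
TPM of LTF, PGLYRP1 and 6 other genes in the 8 lungs, on a log axis after adding 0.01 TPM, with the DSE2 lung as a star. The star is the highest point for every gene shown, at 292 TPM for LTF and 61.6 TPM for PGLYRP1.

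MPO was close to the floor throughout. Its highest value was 1.92 TPM, in the BS4 spleen, and its means were 0.401 TPM in spleen, 0.192 in lung, 0.110 in liver and 0.0392 in kidney, while all 8 hearts were listed at 0. It therefore stayed under the minimum of 1 TPM for any test. The spleens had 0.817, 0.0419, 0.157 and 1.92 TPM in BS and 0.0397, 0.0352 and 0.192 TPM in DSE1 to DSE3, with DSE4 listed at 0. Genes of the serine protease family from the same granule were also low: AZU1 reached 12.3 TPM, PRTN3 5.69 TPM and ELANE 2.14 TPM, each in the BS4 spleen.

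CSF3R, the growth factor receptor, varied least between the lungs. It averaged 25.1 ± 8.09 TPM in lung, 9.004 ± 5.78 in spleen, 2.26 ± 2.19 in liver, 0.924 ± 0.309 in heart and 0.709 ± 0.473 in kidney (SD, n = 8), with overlap between neighbours. In lung it stood at 19.9, 15.6, 35.0 and 38.2 TPM in BS and 20.8, 21.0, 21.0 and 29.5 TPM in DSE, and the DSE lungs lay within the BS range. The spleens had 19.1, 16.1, 4.77 and 10.2 TPM in BS and 5.19, 6.97, 6.71 and 2.91 TPM in DSE. BS3 fell among the DSE spleens and the other BS spleens were above them. In liver the BS animals had 7.40, 2.96, 1.71 and 1.90 TPM and the DSE animals 0.599, 1.23, 1.13 and 1.15 TPM, which did not overlap.

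CSF3R was also the member with a transcript model built from long reads, 1 of its 3 transcripts. Full-length reads came from lung in 15 (BS) and 11 (DSE) cases and from spleen in 3 and 1. The remaining libraries held 0 to 3 reads each. Lung exceeded spleen by 1.95 on the log2 scale and did not pass edgeR's quasi-likelihood test (adjusted p = 0.168, 4110 genes tested, 1 library per pig group and organ), where 9.76% of genes were called higher in lung. In the short reads the long-read transcript made up 92.4 ± 5.87% of CSF3R in lung and 90.4 ± 5.21% in spleen, and its share was not called different (limma, adjusted p = 0.0704). The main LTF transcript made up 93.7 ± 15.3% and 99.8 ± 0.27% (limma, adjusted p = 0.966), but nothing is read from this. LTF reached the 5 TPM minimum in lung through the DSE2 library alone. Without that library the DSE lungs averaged 0.971 TPM, beside 2.19 TPM in the BS lungs. Without BS1 the BS spleens averaged 10.3 TPM, beside 0.541 TPM in the DSE spleens. Shares were called with a shift of at least 20 points, which 1.46% of tested transcripts met between these organs.

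Side by side, spleen and liver put the BS animals above the DSE animals in mean log2 level for 7 of 7 members. Without any overlap this held for 3 of 7 in spleen (PG-2, LTF and PGLYRP1), where 12% of tested genes had every BS library above every DSE library. In liver it held for 4 of 7 (the same 3 and CSF3R), where the share over all genes was 19.2%. In kidney it held for 2 of 7, PG-2 and PGLYRP1, beside 19.8% of tested genes, although both were under 1 TPM and below the filter for a test. LTF was the reverse there, beside 17.6% of genes with every DSE library above. In heart it held for 1 of 7, LTF, also under 1 TPM, beside 23.1%. In lung 0 of 7 members had every BS library above, against 14.2% of genes, and only PGLYRP1 had every DSE library above, against 25.7%. These comparisons helped to choose the members, so nothing is read from the counts.

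The 2 animals with the highest level were BS1 and BS4 for 6 of 7 members in spleen and for 6 of 7 in liver, beside 3.21% and 11.6% of all tested genes. In kidney this was so for 2 of 7, in heart for 1 and in lung for 0, beside 1.79%, 6.11% and 4.09%. Levels in single animals helped to choose the members, so nothing is read from these counts. MPO, among the 6 in spleen and in liver, was under the 1 TPM minimum of the tested genes. CSF3R was the exception in spleen and liver, with BS1 and BS2 on top. S100A8 in spleen shows the spread, with 358, 57.9, 23.1 and 152 TPM in BS and 15.7, 16.2, 23.2 and 9.80 TPM in DSE. BS3 lay inside the DSE range there, just under DSE3. The ratio of group means was 9.11, and 4.79 without BS1. S100A12 in spleen had 477, 80.9, 26.0 and 153 TPM in BS and 25.8, 15.5, 29.4 and 6.48 TPM in DSE, with a ratio of 9.55, and 4.50 without BS1.

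**Figure D4:**
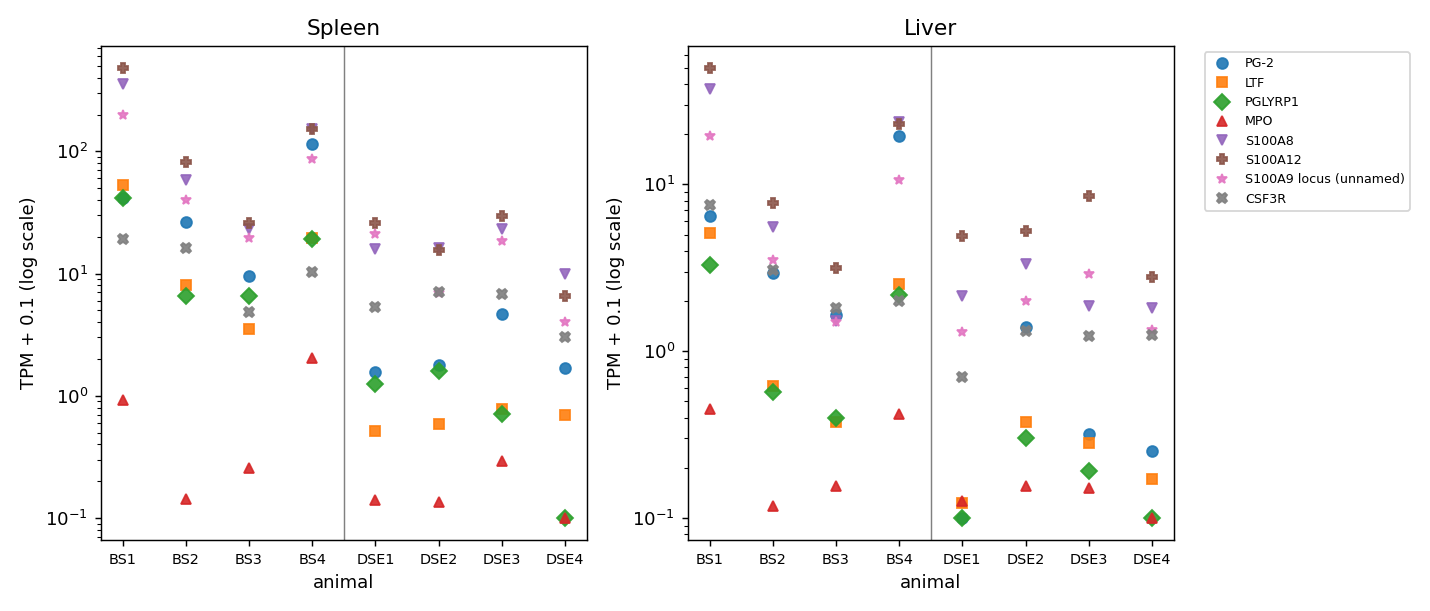
TPM of the 7 members and the gene at the S100A9 locus in each animal's spleen and liver, on a log axis after adding 0.1 TPM. BS1 and BS4 are the top animals for most genes. PG-2, LTF and PGLYRP1 lie lower in every DSE animal in both organs, although LTF of BS3 and DSE2 nearly coincide in liver. S100A8 and S100A12 of BS3 lie within or below the DSE range in liver.

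Blood cell genes moved with this ordering in part. BS1 and BS4 had the highest erythroid sums in spleen (29495 and 28412 TPM) and in liver (1418 and 1893 TPM). BS3 had a low erythroid sum in spleen, 1064 TPM, inside the DSE range of 685 to 6862, and there its PG-2 (9.48 TPM), LTF (3.39) and PGLYRP1 (6.42) still exceeded every DSE spleen. The sum of the 5 neutrophil markers outside the members was 42.4, 11.6, 3.57 and 11.8 TPM in the BS spleens and 3.58, 4.41, 5.97 and 1.95 TPM in the DSE spleens, and BS3 was inside the DSE range. Of the 10 erythroid and 5 neutrophil markers, none was at 0 in every spleen. The part of blood content in the differences between pig groups was not tested beyond these values.

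Likeness was measured as Pearson's r over the 40 libraries, which share organs, animals and processing, and it is given as a description. On levels, PG-2 was most like an NPG3 gene (r = 0.926) and PMAP-23 (0.920). S100A12 was most like CCRL2 (0.963), a chemerin-binding receptor, and HK3 (0.955), a hexokinase of white blood cells, and S100A8 had C19orf38 (0.940), CCRL2 (0.938) and HK3 (0.934). CSF3R was most like TREM1 (0.971), CCRL2 (0.965) and C19orf38 (0.964), of which TREM1 is a receptor of neutrophils and monocytes. MPO was most like AZU1 (0.924) and then the erythroid genes CA1 (0.831) and RHCE (0.806). PGLYRP1 had COL17A1 and NFE2 (both 0.862) and GATA1 (0.845), of which NFE2 and GATA1 are transcription factors of the erythroid and platelet lineages. LTF was most like CD177 (0.785), a neutrophil surface protein, then PITX1 (0.703) and the cartilage gene HAPLN1 (0.678). Without the DSE2 lung and the BS1 spleen these were 0.624, 0.404 and 0.191.

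Correlations between members were weaker for most pairs after the mean of each organ and pig group was removed. S100A8 and S100A12 varied together (r = 0.872, and 0.846 without the DSE2 lung and the BS1 spleen), and both were closest to the mitochondrial gene ND5 (0.832 and 0.826). An erythroid gene was among the 3 closest to each, HBM for S100A8 (0.731) and CA1 for S100A12 (0.714). PGLYRP1 had r = 0.603 with S100A8 and 0.592 with S100A12, and 0.7096 and 0.650 without those libraries. PG-2 and MPO had r = 0.641, and 0.639 without those libraries, and AZU1 was the gene closest to each (0.781 and 0.864). LTF and PGLYRP1 had r = 0.721, which was 0.362 without those 2 libraries. LTF then had 0.587 with MPO and 0.525 with PG-2, beside 0.296 and 0.218 over all libraries. For LTF the closest genes were MATN3 (0.866), HAPLN1 (0.848) and ACAN (0.841), which came to 0.190, 0.188 and 0.298 without them. The likeness of LTF to cartilage genes thus rested on those libraries.

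The wider neutrophil programme was read in gene lists with the members left out, first between lung and spleen. Over 16481 tested genes, 16.9% were called higher in lung and 6.69% higher in spleen. The members' own log2 differences, lung minus spleen, were 4.52 for S100A12, 2.57 for S100A8, 1.53 for CSF3R, 1.17 for PGLYRP1, -0.13 for LTF and -2.17 for PG-2. Without the DSE2 lung and the BS1 spleen they were 4.89, 2.94, 1.67, 1.13, -0.72 and -2.08. The sign for LTF turned positive without BS1 (0.23), DSE1 (0.20), DSE3 (0.18) or DSE4 (0.14).

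Lung was higher for 8 of 16 tested genes of the specific and gelatinase granules and lower for 0 by limma (2 at an unadjusted p under 0.05), with a list median of 0.96 beside 0.12 over all genes. SLPI, an antiprotease that airway epithelium also secretes, stood at 1060.2 ± 396 TPM in lung and 4.53 ± 1.71 in spleen (SD, n = 8), a log2 difference of 7.53 ± 0.32 (SE, limma, adjusted p = 1.08e-20). CHI3L1, a chitinase-like protein, rose by 5.21 ± 0.26 (adjusted p = 5.64e-19) and LCN2, which binds iron carriers of bacteria, by 3.64 ± 0.32 (adjusted p = 3.99e-12). Of 8 tested azurophil genes only lysozyme (LYZ) was called, higher in lung by 3.52 ± 0.52 (adjusted p = 3.88e-07). LYZ varied widely, with 1281 ± 1488 TPM in lung. Airway and gland epithelial markers moved with these genes, all 11 of them higher in lung, and their part was not tested. SLPI and LCN2 are themselves among those 11 markers, so for them the agreement was fixed in advance.

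The rest of the S100 list, which also holds the S100P-binding protein gene S100PBP, was higher in lung for 5 of 9 genes and lower for 0 by limma (1 at an unadjusted p under 0.05), with a median of 1.31. S100A10, an annexin partner, had 1133 ± 183 TPM in lung and 445 ± 123 in spleen, S100A6 had 344 ± 161 and 57.6 ± 24.3, and S100A14 had 63.0 ± 19.4 and 25.3 ± 8.20. Genes for recruitment ligands were higher in lung for 9 of 13 and in spleen for 1 (median 2.46). The complement genes C5 and C3, whose products yield attractants for neutrophils, rose by 7.55 ± 0.21 and 2.85 ± 0.16, and the chemokine gene CXCL2 had 189 ± 137 TPM in lung and 11.6 ± 10.6 in spleen (adjusted p = 5.83e-15). CSF1, the growth factor of macrophages, was higher in spleen by 1.34 on the log2 scale (adjusted p = 2.15e-09). Of the genes tested, 2.64% were lung-enriched, at least 4-fold over each other organ. Among the lists this held for 5 of 13 ligands, 4 of 16 specific granule genes and 2 of 5 peptidoglycan recognition genes. It also held for 1 gene each of the azurophil (of 8), S100 (of 9), receptor (of 19), oxidase and signalling (of 25) and granulopoiesis (of 10) lists.

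Receptors and signalling were mixed. Among receptors and chemotaxis genes 7 of 19 were higher in lung and 1 in spleen (median 0.51). PECAM1, which endothelium carries too, had 454 ± 78.5 TPM in lung and 70.4 ± 12.8 in spleen. Endothelial markers moved with it, all 8 higher in lung, and their part was not tested. PECAM1 is itself among those 8 markers, so its own agreement was fixed in advance. The leukotriene receptor gene LTB4R2 was higher in spleen, at 28.7 ± 6.86 against 8.17 ± 4.56 TPM. CXCR2, the main chemokine receptor of neutrophils, had no symbol in the annotation. An unnamed gene at the RefSeq CXCR2 locus (ENSSSCG00000016184) had 89.1 to 199 TPM in spleen and 2.03 to 36.7 TPM in lung, the reverse of CSF3R.

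The oxidase and signalling list leaned to spleen, with 11 of 25 genes higher there and 4 in lung (median -0.57). The adaptor genes TYROBP and FCER1G and the GTPase gene RAC2 were higher in spleen, at 1422, 1232 and 286 TPM against 583, 497 and 117 TPM in lung. CEBPB, CEBPD and FGR, 2 transcription factors and a kinase of myeloid cells, were higher in lung, by 1.75, 1.76 and 2.09. Markers of macrophages and monocytes were higher in spleen for 8 of 15 and in lung for 5, and these adaptors belong to macrophages as well. B and plasma cell markers were higher in spleen for 8 of 10 (median -2.81) and those of T and NK cells for 6 of 12 (median -1.33). The part of these cells in the list's lean was not tested. Granulopoiesis genes divided 4 to lung and 3 to spleen of 10 (median -0.04). SRGN, the proteoglycan of granules, was higher in spleen at 1949 ± 795 against 552 ± 91.2 TPM, and CD34 higher in lung at 72.3 ± 7.69 against 8.56 ± 1.90 TPM.

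Cathelicidins and other antimicrobial peptides were higher in spleen for 3 of 12 and in lung for 2. The 3 were both NPG3 genes (-2.46 and -1.54 on the log2 scale) and PMAP-23 (-1.22), the neighbours of PG-2 in likeness. Their lung means of 0.0848, 0.910 and 0.183 TPM were under the 1 TPM minimum. Their spleen levels came mainly from BS, as the DSE spleens averaged 0.456 to 0.851 TPM. Nothing is read from their agreement with PG-2. The 2 were the ribonuclease genes RNASE4 (357 ± 104 against 119 ± 43.9 TPM) and ANG (147 ± 36.8 against 22.3 ± 6.26 TPM). Spleen-enriched calls took 1.48% of tested genes and 1 gene of this list. Peptidoglycan recognition genes were higher in lung for 2 of 5, LYZ and the cytosolic receptor NOD1 (12.7 ± 2.91 against 2.10 ± 0.607 TPM), and in spleen for 0 by limma, with 1 at an unadjusted p under 0.05.

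**Figure D5:**
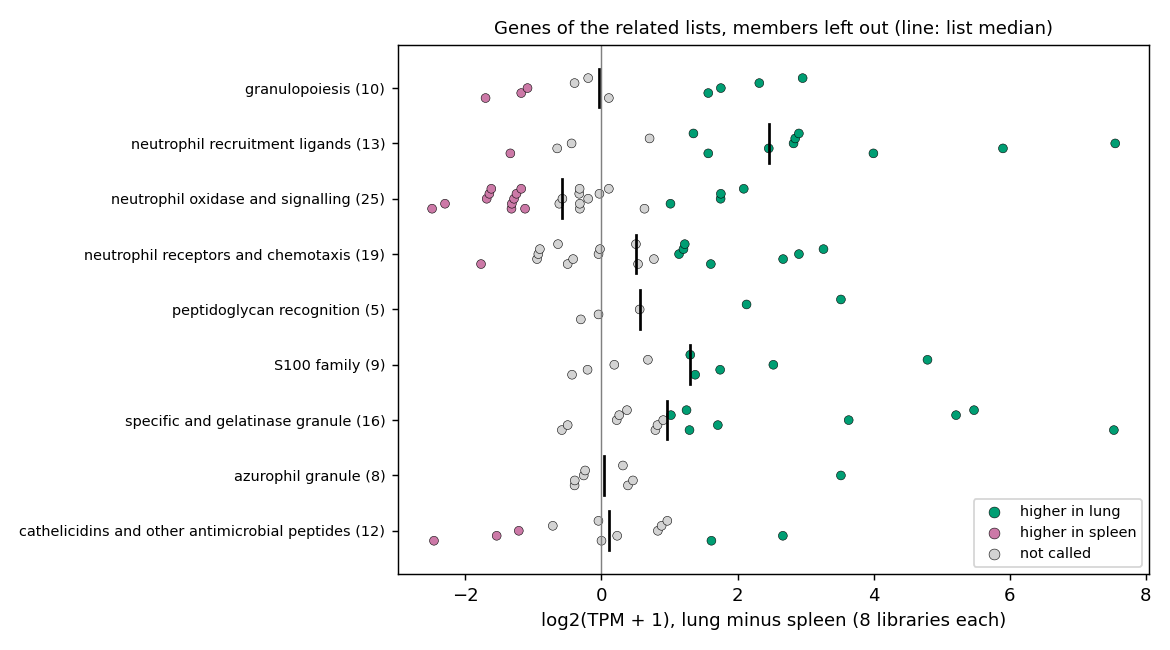
Log2 difference of TPM + 1, lung minus spleen, for each tested gene of 9 gene lists without the members, coloured by call, with a line at each list's median. Medians run from 2.46 for recruitment ligands to -0.57 for oxidase and signalling genes.

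Between pig groups in lung, 2.69% of 15025 tested genes were called higher in BS and 6.36% higher in DSE. Scaling by median ratios turned that balance, from 29.7% of calls higher in BS to 70.9%, as the median gene shifted from -0.21 to 0.03 on the log2 scale. Recruitment ligands gave 5 of 13 higher in BS and 0 in DSE by limma, where 1 had an unadjusted p under 0.05. CXCL2 had 216, 439, 213 and 324 TPM in BS and 88.0, 69.2, 106 and 55.5 TPM in DSE, with no overlap, and was higher by 1.86 ± 0.27 (adjusted p = 0.00300). IL1A, which codes for interleukin 1 alpha, was higher by 2.35 ± 0.31, at 73.8 ± 29.0 against 13.3 ± 4.29 TPM (adjusted p = 0.00251). CXCL8 was called too (adjusted p = 0.0212), but missed 0.05 without DSE3 (0.0561) or DSE4 (0.0535), with the replicate block (0.0529) and without the filter on low values (0.104). Without the DSE2 lung and the BS1 spleen 3 ligands were called.

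Few other list genes separated the lungs. The receptor list gave 0 of 18 in BS by limma, with 2 at an unadjusted p under 0.05, and 2 in DSE. Among the latter was ADGRE3, whose adjusted p of 0.0480 was lost without any of BS1, BS2, BS4, DSE1, DSE3 or DSE4, with median-ratio scaling (0.0833) and without the filter (0.183). Granule genes called higher in BS were ARG1 (1.66 ± 0.25, adjusted p = 0.00327), MMP9 (1.59 ± 0.42, adjusted p = 0.0181, with 0.0513 without DSE1 and 0.0877 without the filter) and ARSA (1.27 ± 0.12, adjusted p = 0.00117). CEBPD was higher by 1.14 ± 0.19 (adjusted p = 0.00419). CEBPB (1.03) and CSF3 (1.21) were also higher in BS and LYST (-1.25) and MYB (-1.08) in DSE, calls that were lost in 2, 9, 3 and 9 of 13 alternatives. By limma 0 of 8 genes of the list of cathelicidins and other antimicrobial peptides, 0 of 8 of the S100 list and 0 of 4 of the peptidoglycan recognition list were called in lung. At an unadjusted p under 0.05, the first list had 1 gene higher in BS and 3 in DSE, the second 1 in BS and the last 1 in DSE.

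In spleen, 1.42% of 13913 tested genes were called higher in BS and 1.56% higher in DSE, and scaling by median ratios moved the share of calls higher in BS from 47.6% to 71.7%. The list of cathelicidins and other antimicrobial peptides gave 3 of 9 higher in BS, the NPG3 genes and PMAP-23 already described. They were its only tested cathelicidins, and they reached the minimum for a test only through BS. Cathelicidins low in both groups could not enter, so nothing is read from their agreement. Of 14 specific granule genes 2 were higher in BS. CD177 had 3.92, 1.78, 0.784 and 4.95 TPM in BS and 0.0484 to 0.197 TPM in DSE, a difference of 1.68 ± 0.35 (adjusted p = 0.0116, and 0.0650 without the filter on low values). LCN2 differed by 1.31 ± 0.34 (adjusted p = 0.0238), a call lost without BS1, DSE1 or DSE2, with the replicate block (adjusted p = 0.0517) and without the filter (0.125). CD177 reached the minimum for a test only through BS, as its DSE mean was 0.087 TPM. Both proteins belong to the specific granules, as LTF and PGLYRP1 do, but nothing is read from that agreement.

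Other spleen calls went both ways. CXCL2 was lower in BS, at 3.90 ± 1.54 against 19.4 ± 10.1 TPM (log2 -1.96 ± 0.35, adjusted p = 0.00818, and 0.0506 without the filter), while in lung it was higher in BS. That contrast between organs was not tested. CEBPD was higher in BS by 1.10 ± 0.18 (adjusted p = 0.00588), and by 0.96, under the 2-fold minimum, without BS1. LYZ was higher in DSE (adjusted p = 0.0360) and this was lost in 6 of the 8 fits that left out an animal, in 1 fit over all organs (0.124) and without the filter (0.177). CD14 (1.12) was higher in BS, and TLR4 (-1.01) and SRGN (-1.02) in DSE, with the calls lost in 5, 6 and 8 of 13 alternatives. By limma 0 of 7 genes of the S100 list were called, and 2 were higher in DSE at an unadjusted p under 0.05.

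Over the organs, on each animal's mean, 1.14% of 15118 genes were called higher in BS and 0.417% higher in DSE. CEBPD, a transcription factor of myeloid cells and of the acute-phase response, was higher in BS by 1.27 ± 0.10 (adjusted p = 2.11e-05) and kept its call in all 12 alternatives. The BS range was above the DSE range in heart (65.8 to 125 against 15.0 to 55.2 TPM), kidney (117 to 242 against 50.0 to 74.9), lung (423 to 637 against 188 to 315) and spleen (106 to 193 against 54.7 to 72.2). In liver the groups overlapped, at 174 to 462 and 113 to 176 TPM. An NPG3 gene (ENSSSCG00000053533) was higher in BS by 1.02 ± 0.28 (adjusted p = 0.0112) and lost its call without BS1, BS4 or DSE1 and without the filter. That gene reached the minimum for a test only through BS (4.24 against 0.310 TPM) and may share reads with PG-2, so nothing is read from its call. LYZ was higher in DSE by a log2 difference of -1.17 ± 0.37, BS minus DSE (adjusted p = 0.0218), and was lost without BS3, BS4 or DSE3 and without the filter.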

How the data were processed

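The authors deposited gene and transcript TPM for 40 Illumina libraries, and raw counts of full-length reads for 10 PacBio libraries (119623 to 456783 reads per library). Other deposited values are coordinates, from an annotation that rtracklayer 1.58.0 wrote, per the file headers. Per the submitters' processing notes, STAR 2.7.10a and Salmon 1.10.1 were used with build susScr11, with no step assigned. No label matches the code of 20 columns in the gene table, 20 in the transcript table and 5 in the full-length table, and these were left out. Samples titled DT were not analysed here. Short-read depth is unknown.

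Gene TPM was compared with limma 3.58.1 (R 4.3.3, trended prior variance) on log2(TPM + 1), among genes averaging at least 1 TPM in a compared group, with Benjamini-Hochberg adjustment at 0.05 and at least 2-fold. Organ contrasts used all organs and BS against DSE was fitted within an organ or on each animal's mean over organs. Usage compared each transcript with the rest of its gene as a log2 ratio (0.5 TPM added, genes averaging at least 5 TPM, transcripts of at least 5% usage). Full-length reads were tested with edgeR 4.0.16 (TMM, pig group as a term), with DESeq2 1.42.0 as an alternative. Other packages were the data.table package (1.17.8), Python 3.11.15, pandas 2.3.3, numpy 2.4.6 and matplotlib 3.10.9. The fits were tested on simulated data.

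Members and lists were chosen with earlier results of these data known. Named genes were the members, up to 3 passing genes per list, comparison and direction with the highest mean TPM, each list's most abundant gene, and the 3 genes most like each member in level and in deviation. Genes shown for the DSE2 lung, the further cathelicidin, the azurophil genes shown beside MPO and the gene at the CXCR2 locus were chosen after their values were seen. A gene that the rule named is not reported here. Alternatives were another pseudocount, median-ratio scaling, no filter, other fold minimums, 1 fit over all organs, a replicate block, and leaving out each animal.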

Additional observations from a re-analysis of the deposited data

Results flagged for a closer look

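In groups of 4 libraries, 6 of 39 groups examined held a library farther from its nearest neighbour than Dixon's limit at 95% allows. In lung these were LTF in DSE2 (292 TPM, next 1.32), PGLYRP1 in DSE2 (61.6, next 13.6), PG-2 in BS4 (9.48, next 0.753) and CSF3R in DSE4 (29.5, next 21.0). In spleen it was PG-2 in DSE3 (4.52 TPM, next 1.67), and in liver CSF3R in DSE1 (0.599 TPM, next lowest 1.13).

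LTF had every BS library above every DSE library in spleen (log2 difference 3.23) and liver (1.15) and the reverse in kidney (-1.97). PGLYRP1 had every BS library above in spleen (3.10) and liver (1.06) and the reverse in lung (-1.50). These differences between organs were not tested, and the members had been chosen with such levels in view.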

How the results depend on the processing

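Of 149 alternative counts of called genes, 121 stayed within 1.5 times the main count and 28 did not. A 4-fold minimum gave 1177 genes higher in lung and 336 higher in spleen. A pseudocount of 0.1 TPM gave 721 lung-enriched and 419 spleen-enriched genes, 322 higher in BS in spleen, and 439 (BS) and 197 (DSE) over the organs. Median-ratio scaling gave 224 lung-enriched genes, 762 (BS) and 313 (DSE) in lung, 110 (DSE) in spleen and 38 (DSE) over the organs. No filter on low values gave 489 (DSE) in lung and 85 (BS) and 88 (DSE) in spleen. No minimum fold gave 2147 (BS) and 4008 (DSE) in lung and 1496 (BS) and 2289 (DSE) in spleen. Full-length reads gave 229 genes higher in lung without the pig term, 233 on annotated transcripts only and 239 with DESeq2, and usage gave 525 calls with genes averaging at least 1 TPM. Leaving out 1 animal gave 510 to 1533 genes higher in DSE and 356 to 502 higher in BS in lung, and 134 to 335 (DSE) and 150 to 235 (BS) in spleen.

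Of 63 tested results for named genes or transcripts, 41 kept their side of the threshold in every alternative, 22 lost the call in at least 1, and none reversed. Of 498 alternative values for the members, 84 moved by more than the spread between replicates. PG-2 in lung, BS minus DSE, changed from -0.14 to 0.04 with median-ratio scaling, 0.13 without BS2 and 0.23 without BS3, LTF in lung from -1.32 to 0.49 without DSE2, and CSF3R in lung from 0.15 to -0.04 without BS4. S100A12 in kidney, at 0.04, changed sign in 5 alternatives.

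Titles give both pig groups the numbers 1 to 4. Same-numbered BS and DSE libraries of an organ did not deviate together (median r of -0.041, over 0.1 in 0 of 20 pairs). Libraries with different numbers had a median r of 0.004, over 0.1 in 12 of 60 pairs. These values show no shared deviation, but they cannot tell whether the numbers mark a pairing. With the replicate block, lung gave 375 (BS) and 808 (DSE) calls and spleen 182 and 219, and the calls of CXCL8, CSF3 and MYB in lung and LCN2 in spleen were lost (adjusted p = 0.0529, 0.0623, 0.0950 and 0.0517). Libraries with the same animal code in other organs had a median r of 0.117, over 0.1 in 47 of 80 pairs.

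Unknown depth leaves the precision of low TPM values unknown, which bears on MPO and on PG-2 outside spleen, and the 26 full-length CSF3R reads of lung limit that comparison.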
